A study of Homo sapiens with 6 samples.

Results

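The mitochondrial ribosomal protein genes were compared between control cells and FSCN1-silenced cells of A549, a human lung adenocarcinoma line. FSCN1 encodes the actin-bundling protein fascin. The genes were taken from the deposited count table by 2 properties, a protein-coding gene type and a symbol that begins with MRPL or MRPS and a digit. This gave 78 of the 30230 genes in the table, and all 78 were among the 17076 genes that had enough counts to be tested. By their known place in the ribosome, 51 belonged to the large subunit and 26 to the small subunit, and MRPS36 is now known as a part of the 2-oxoglutarate dehydrogenase complex.

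Polyadenylated RNA was sequenced from 3 libraries of control cells (NC) and 3 libraries of silenced cells (siFSCN1). As the study describes it, NC cells received a scrambled siRNA and siFSCN1 cells a single siRNA against FSCN1, whereas the GEO labels describe the NC treatment as a control plasmid. With 1 siRNA, loss of FSCN1 and any other action of that siRNA cannot be told apart. The comparison of siFSCN1 with NC asks which RNAs changed when FSCN1 was silenced.

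Mitochondria translate the few messages of their own genome on a ribosome that is separate from that of the cytosol. Its rRNAs are made inside the organelle, but its proteins are encoded in the nucleus, made in the cytosol and imported. Part of them descend from bacterial ribosomal proteins and part are found only in mitochondria, where they surround the rRNA core. The products of this ribosome are membrane subunits of the respiratory chain and of ATP synthase.

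The libraries held between 27967301 and 36560919 counts, and the mitochondrial ribosomal protein genes took 0.609% to 0.618% of the counts in NC and 0.487% to 0.507% in siFSCN1. The lowest count of any of these genes in any library was 62, so every gene was measured in every library. FSCN1 itself had 45.0, 47.2 and 46.0 FPKM (fragments scaled to transcript length and sequencing depth, as deposited) in NC and 4.46, 2.82 and 3.19 FPKM in siFSCN1, a log2 fold change of -3.89 ± 0.09 (SE, n = 3 per group; edgeR adjusted p = 8.1e-16). All 8 of the A549 and epithelial markers were in the table, and they went both ways. The keratins KRT7, KRT18 and KRT8 fell with log2 fold changes of -1.19, -0.99 and -0.88 and AKR1C1 with -0.29, ALDH3A1, ALDH1A1 and EPCAM rose with 0.48, 0.32 and 0.29, and AKR1B10 did not pass. Their sum was 32100 to 35400 CPM in NC and 26200 to 27600 CPM in siFSCN1. Of 10 markers of blood, endothelial and stromal cells, 9 were in the table, and together they reached 9.19 to 9.93 CPM in NC and 9.53 to 12.9 CPM in siFSCN1. Most of this was CD14, which rose from 5.85, 6.19 and 6.05 CPM to 8.78, 7.86 and 7.15 CPM (log2 fold change 0.40, adjusted p = 0.00528), and COL1A1. In NC, VWF was at 0 in all libraries, in siFSCN1 CD3E and COL1A2 were, and their part in the results was not tested. CPM are TMM-scaled counts relative to the size of each library.

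Silencing of FSCN1 was followed by lower RNA of most mitochondrial ribosomal protein genes. At an adjusted p under 0.05 (edgeR's quasi-likelihood test, Benjamini-Hochberg over all tested genes), 73 of the 78 were lower in siFSCN1, 3 were higher and 2 did not pass. In bulk RNA, a change in every cell and a change in part of the cells cannot be told apart. Among all tested genes, 33.2% were lower and 35.1% were higher by the same test. The median log2 fold change of the 78 genes was -0.485, a fall of 28.5%, with quartiles of -0.638 and -0.307 and a range from -0.952 to 0.298. The median over all tested genes was 0.031. The size of the fall depended on how the libraries were scaled, since with plain library totals 60 of the 78 were lower, 5 higher and the median was -0.298, where 22.4% of all tested genes were lower, 46.7% higher and their median was 0.218. Relative to the median of all genes the members lay at -0.516, a value that a change of scaling cannot move by its construction. Of the 78, 72 to 74 had a log2 fold change under 0 under every alternative that kept all 78. The 3 CPM values of siFSCN1 lay below the 3 values of NC for 72 of the 78 genes and above them for 3, against 34.4% and 36.8% of all tested genes.

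**Figure D1:**
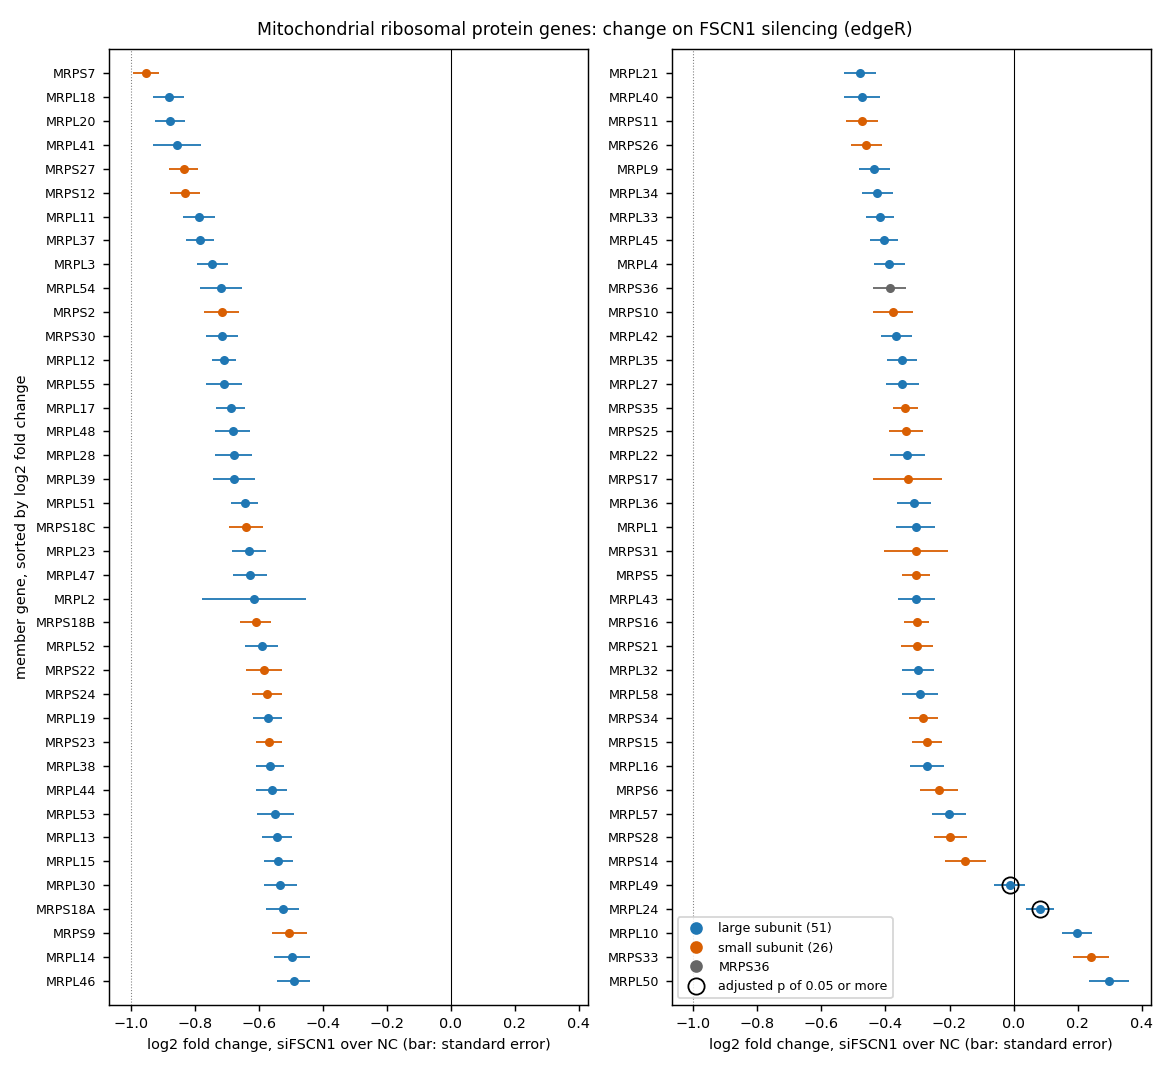
Log2 fold change of siFSCN1 over NC (horizontal axis, with bars of 1 standard error, 3 libraries per group) for each of the 78 mitochondrial ribosomal protein genes, ordered from the lowest and split over 2 panels, with colours for the subunit. All but 4 points lie left of 0, and MRPL10, MRPS33 and MRPL50 lie to the right of it with MRPL24.

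The falls were many but moderate. Of the 78 genes, 25 fell by 1/3 or more, and these lost 33.6% to 48.3% of their NC level. A fall of 1/3 or more was found in 2507 of all 17076 tested genes. At 5 to 100 FPKM it was found in 940 of 4725 protein-coding genes and in 21 of 69 members. None of the 78 changed 2-fold by edgeR or by DESeq2 at any p. Of all tested genes, 16.5% changed at least 2-fold in either direction at an adjusted p under 0.05. Their median level was lower, at 2.08 FPKM against 21.5 FPKM for the members. The deposited FPKM, which are scaled to each gene's length, can be added across genes. The sum over the 78 genes was 2628, 2570 and 2657 FPKM in NC and 2168, 2047 and 1969 FPKM in siFSCN1. The groups did not overlap, and their means were 2618 ± 44.2 and 2061 ± 100 FPKM (SD, n = 3 each), a ratio of 0.787. The same sum in CPM had a ratio of 0.713. The FPKM were not scaled by TMM, which raised the libraries of NC relative to those of siFSCN1.

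The genes at the bottom of the order code for both subunits. MRPS7 (ENSG00000125445.11, chr17:75261674-75266376 on the plus strand of GRCh38), a protein of the head of the small subunit, had 189, 179.8 and 182 CPM in NC and 96.8, 95.8 and 92.4 CPM in siFSCN1. Its log2 fold change of -0.95 ± 0.04 (SE; adjusted p = 4.98e-13) was the lowest of the 78, a fall of 48.3%. MRPL18, of the central protuberance of the large subunit, had 95.2, 105.6 and 100.1 CPM in NC and 54.9, 54.1 and 54.3 CPM in siFSCN1. In both genes the spread within each group was far smaller than the gap between the groups. MRPL20, an rRNA-binding protein of the large subunit whose bacterial homolog is needed early in assembly, had 93.5, 91.1 and 89.3 CPM in NC and 50.8, 49.8 and 48.4 CPM in siFSCN1. Its log2 fold change was -0.88 ± 0.05 (SE; adjusted p = 9.95e-12), close to that of MRPL18 at -0.88 ± 0.05 (adjusted p = 1.57e-11).

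MRPL41, a mitochondria-specific protein of the large subunit, was the most variable of the low group, with 91.4, 82.0 and 92.0 CPM in NC and 55.2, 49.6 and 42.0 CPM in siFSCN1. Even so its groups did not overlap, and 34.4% of all tested genes likewise had every siFSCN1 library below every NC library. MRPS27, a pentatricopeptide repeat protein of the small subunit, had 115.8, 116.6 and 110.8 CPM in NC and 66.1, 61.8 and 64.5 CPM in siFSCN1. MRPS12, which forms part of the decoding site where codon and anticodon meet, had 225, 212 and 222 CPM in NC and 132, 123 and 115 CPM in siFSCN1. The log2 fold changes of MRPL41, MRPS27 and MRPS12 were -0.85, -0.83 and -0.83. MRPL11 and MRPL37 followed with -0.79 and -0.78, and the standard errors of these 5 genes ran from 0.0436 to 0.074, so their order among each other is not resolved.

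**Figure D2:**
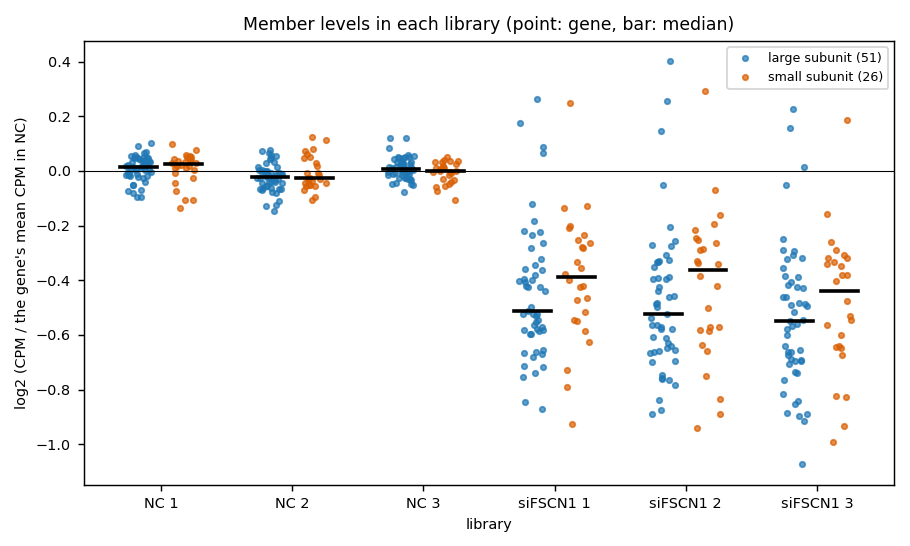
Each point is a gene's CPM in a library over its mean CPM in NC, on a log2 vertical axis, for the 6 libraries on the horizontal axis, with blue for the 51 large-subunit and orange for the 26 small-subunit genes and black bars for their medians. The siFSCN1 libraries sit below the NC libraries for 47 of the 51 large-subunit genes and 24 of the 26 small-subunit genes.

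Promoter sequence was examined because the nuclear genes of the mitochondrial ribosome are scattered over 21 chromosomes, although MRPL46 and MRPS11 lie side by side. RefSeq windows of 250 bases before to 50 bases after the start (GRCh38.p14) were found for 69 of the 78 genes. The windows printed here come from a gene with a pair of motif copies, a decoding-site gene and MRPL46 of a divergent pair of members. The others come from a gene with the NRF1 core and 2 of the genes that rose. The window of MRPS11, the partner of MRPL46, holds none of the motifs marked here and is not printed. Capitals mark CCGGAAG, the core bound by ETS factors such as GABP, GCATGCG, the centre of the site of the transcription factor NRF1, and ATGGCGG, the core bound by YY1, each on either strand. The windows are chr1:1407244-1407543 on the minus strand for MRPL20, chr19:38930694-38930993 on the plus strand for MRPS12, chr15:88467339-88467638 on the minus strand for MRPL46, chr9:101398569-101398868 on the minus strand for MRPL50, chr7:141014903-141015202 on the minus strand for MRPS33 and, chr11:6683291-6683590 on the minus strand for MRPL17, where the NRF1 core was read on both strands at 2 places.
MRPL20: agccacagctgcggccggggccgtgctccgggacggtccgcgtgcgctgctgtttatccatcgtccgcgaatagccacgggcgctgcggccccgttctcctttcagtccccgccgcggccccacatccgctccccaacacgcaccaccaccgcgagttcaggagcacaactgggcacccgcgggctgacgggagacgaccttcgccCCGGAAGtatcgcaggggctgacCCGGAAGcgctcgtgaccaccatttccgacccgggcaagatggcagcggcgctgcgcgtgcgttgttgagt
MRPS12: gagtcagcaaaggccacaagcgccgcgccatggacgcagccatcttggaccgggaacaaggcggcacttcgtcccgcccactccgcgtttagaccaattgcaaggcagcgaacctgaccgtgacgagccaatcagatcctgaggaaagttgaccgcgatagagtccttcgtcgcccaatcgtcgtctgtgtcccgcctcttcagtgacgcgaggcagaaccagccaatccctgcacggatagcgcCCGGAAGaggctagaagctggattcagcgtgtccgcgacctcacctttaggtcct
MRPL46: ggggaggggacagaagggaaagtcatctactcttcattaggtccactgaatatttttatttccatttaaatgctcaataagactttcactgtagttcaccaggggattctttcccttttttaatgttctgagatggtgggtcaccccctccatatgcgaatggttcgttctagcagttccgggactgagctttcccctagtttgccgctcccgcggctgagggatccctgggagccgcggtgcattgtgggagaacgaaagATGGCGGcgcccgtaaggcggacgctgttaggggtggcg
MRPL17: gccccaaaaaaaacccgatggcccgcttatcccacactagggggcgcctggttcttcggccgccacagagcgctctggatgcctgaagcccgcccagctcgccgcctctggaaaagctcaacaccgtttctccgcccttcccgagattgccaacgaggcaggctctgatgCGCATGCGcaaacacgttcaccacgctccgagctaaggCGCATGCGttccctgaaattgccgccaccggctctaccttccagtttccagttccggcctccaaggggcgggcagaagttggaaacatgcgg
MRPL50: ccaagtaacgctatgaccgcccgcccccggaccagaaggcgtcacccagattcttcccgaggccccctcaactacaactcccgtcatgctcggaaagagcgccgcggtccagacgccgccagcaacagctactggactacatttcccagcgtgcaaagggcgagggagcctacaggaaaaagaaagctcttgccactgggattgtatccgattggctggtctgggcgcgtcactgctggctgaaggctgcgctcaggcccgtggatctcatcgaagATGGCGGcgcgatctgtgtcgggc
MRPS33: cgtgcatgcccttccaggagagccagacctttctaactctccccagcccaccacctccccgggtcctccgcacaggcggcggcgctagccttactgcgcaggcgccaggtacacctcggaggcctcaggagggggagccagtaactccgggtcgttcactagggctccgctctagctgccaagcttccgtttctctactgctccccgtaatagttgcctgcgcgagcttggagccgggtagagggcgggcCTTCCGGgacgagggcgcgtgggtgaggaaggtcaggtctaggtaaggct

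The ETS core was in the windows of 29 of the 69 genes (42.0%), against 10.7% of all 27305 windows and 18.7% of the windows of tested protein-coding genes. The YY1 core was in 24 (34.8%), against 5.72% and 10.2%, and the NRF1 core in 7 (10.1%), against 4.13% and 6.29%. The other motifs searched on both strands were GGGCGGG of SP1 in 49.3% of members and 53.8% of tested protein-coding windows, CCAAT in 29.0% and 36.4%, and the E-box CACGTG in 8.7% and 10%. None of the motifs contains another, and a match of letters is not a bound site. The YY1 letters ATGGCGG also hold ATG, the start codon of translation, and the windows run past the transcript start. In the printed windows of MRPL46 and MRPL50 the match lies after that start. A YY1 match can thus be the beginning of a coding sequence. How many of the 24 are was not tested, so the YY1 shares may count start codons.

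Genes with a motif and genes without it both had medians below 0. The median log2 fold change was -0.533 with the ETS core and -0.454 without it, -0.591 and -0.482 for the NRF1 core, and -0.405 and -0.533 for the YY1 core. For SP1, CCAAT and the E-box the medians with the motif were -0.467, -0.515 and -0.368. The lowest genes show both states, since MRPL20 carries 2 ETS cores and MRPS12 carries 1, while MRPS7 and MRPL18 carry none of the ETS, NRF1 and YY1 cores in their windows. MRPS33, which rose, carries an ETS core, and MRPL50, which rose too, carries a YY1 core.

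**Figure D3:**
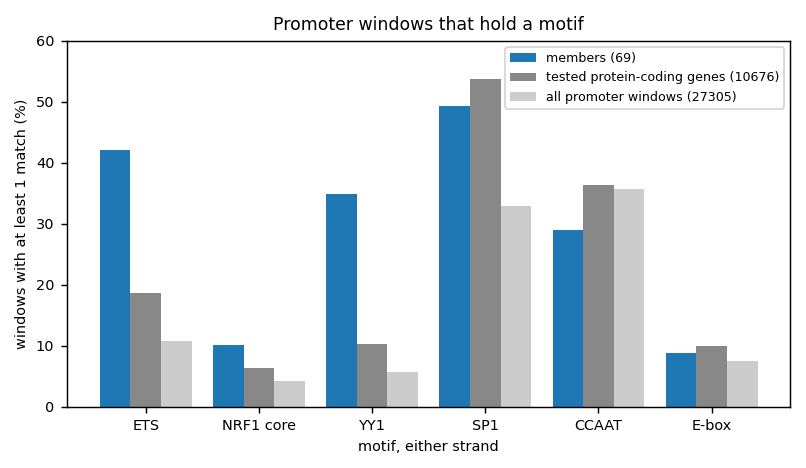
Share of promoter windows, in percent on the vertical axis, that hold each of 6 motifs on either strand, for members (blue), tested protein-coding genes (dark grey) and all windows (light grey). The ETS and YY1 bars stand at 42.0% and 34.8% for members, above both grey bars, while the SP1, CCAAT and E-box bars of members lie below those of tested protein-coding genes.

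The 3 genes that rose had smaller changes than most that fell. MRPL50 (ENSG00000136897.8, chr9:101387633-101398618), a mitochondria-specific protein of the large subunit, had 37.8, 32.5 and 36.1 CPM in NC and 42.6, 46.9 and 41.4 CPM in siFSCN1. Its log2 fold change was 0.30 ± 0.06 (SE; edgeR adjusted p = 0.00038). MRPS33, a mitochondria-specific protein of the small subunit, had 55.2, 47.8 and 51.5 CPM in NC and 61.1, 63.0 and 58.5 CPM in siFSCN1. Its value was 0.24 ± 0.06 (adjusted p = 0.000987). MRPL10, which anchors the stalk of the large subunit, had 78.4, 73.5 and 74.8 CPM in NC and 85.3, 90.3 and 84.4 CPM in siFSCN1, with a log2 fold change of 0.20 ± 0.05 (adjusted p = 0.0011). None of the 3 had CPM that overlapped between groups. Every siFSCN1 library likewise lay above every NC library for 36.8% of all tested genes. All 3 were called higher under every alternative that gave a test.

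MRPL24 and MRPL49 did not pass. MRPL24, a protein near the exit of the peptide tunnel, had 138, 128 and 135 CPM in NC and 142, 148 and 135 CPM in siFSCN1. Its log2 fold change of 0.08 ± 0.04 had an adjusted p of 0.106, and it was called higher in 6 of the 15 tested alternatives, among them scaling to library totals (0.27). MRPL49, a mitochondria-specific protein of the large subunit, had 68.7, 68.9 and 70.3 CPM in NC and 72.5, 66.9 and 66.9 CPM in siFSCN1. The groups overlapped in both genes. Its log2 fold change was -0.01 ± 0.05 (adjusted p = 0.838), with a sign that turned under 7 alternatives. MRPS14, of the head of the small subunit, was the least certain of the genes that passed, at -0.15 ± 0.06 (adjusted p = 0.0449) with overlapping CPM. It lost that call in 9 of the 15 tested alternatives, among them DESeq2 (adjusted p = 0.0625), the stricter filter (adjusted p = 0.0934) and the omission of NC replicate 2, NC replicate 3 or siFSCN1 replicate 3 (adjusted p = 0.135, 0.139 and 0.184), and its sign turned under scaling to library totals (0.04) and on FPKM. MRPS28, MRPL57, MRPS6 and MRPL16 had log2 fold changes between -0.27 and -0.20, and they lost their call under scaling to library totals.

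Most genes of both subunits fell, where 33.2% of all tested genes and 58.3% of protein-coding genes of 5 to 100 FPKM were lower. Of the 51 large-subunit genes 47 were lower and 2 higher, with a median log2 fold change of -0.533. Of the 26 small-subunit genes 25 were lower and 1 higher, with a median of -0.357. The ratio of the summed FPKM of large- to small-subunit genes was 2.14, 2.16 and 2.17 in NC and 2.05, 2.06 and 2.06 in siFSCN1. The groups did not overlap, and the means were 2.16 ± 0.0146 and 2.06 ± 0.00696 (SD, n = 3 each). Such sums weigh abundant genes most, such as MRPL12 and MRPL41 of the large subunit, and the ratio without them was not computed. Summed CPM changed by -29.1% for the large-subunit genes and -28.1% for the small-subunit genes. Proteins with a bacterial homolog and mitochondria-specific proteins had medians of -0.476 (44 of 46 lower, 1 higher) and -0.525 (28 of 31 lower, 2 higher). No test was run between these groups. MRPS36, outside both subunits, was at -0.39 ± 0.05 (adjusted p = 2.09e-06).

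The stalk of the large subunit recruits the translation factors. MRPL12, whose copies form the mobile part of the stalk, was the most abundant of the 78 genes per length. It had 269.9, 263.5 and 267 FPKM in NC and 191.8, 182 and 175.7 FPKM in siFSCN1. Its CPM gave a log2 fold change of -0.71 ± 0.04 (adjusted p = 1.27e-11). Of the 5 genes of the stalk and its base, MRPL10, MRPL11, MRPL12, MRPL53 and MRPL54, 4 were lower and MRPL10 was higher, and the median was -0.709. By the same test 73 of all 78 members and 33.2% of all tested genes were lower. MRPS34, a mitochondria-specific protein of the small subunit, was the next most abundant, with 108, 105.5 and 108 FPKM in NC and 105.7, 99.2 and 92.4 FPKM in siFSCN1. Its log2 fold change of -0.28 ± 0.05 (adjusted p = 2.31e-05) lost its call with library totals (-0.10, adjusted p = 0.0518) and in both FPKM tests.

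The mouth of the exit tunnel faces the inner membrane, into which most products are inserted, and MRPL45 ties the ribosome to that membrane. Of the 7 genes MRPL22, MRPL23, MRPL24, MRPL39, MRPL44, MRPL45 and MRPL47, 6 were lower and MRPL24 did not pass. Their median was -0.559, with MRPL39 lowest at -0.68 and MRPL45 at -0.41. The share lower among all tested genes was 33.2%. The 3 paralogs related to bacterial S18 all fell, with -0.53 for MRPS18A, -0.61 for MRPS18B and -0.64 for MRPS18C, although their levels in NC differed. MRPL58, which can release peptides from stalled ribosomes, had a log2 fold change of -0.29 ± 0.06 (adjusted p = 0.00015), and that call was lost under scaling to library totals.

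Expression level moved with the fold change across the whole data set, and the mitochondrial ribosomal protein genes are more abundant than the average gene. Their median was 21.5 FPKM, against 2.91 FPKM for tested protein-coding genes. Among protein-coding genes of 5 to 100 FPKM, 58.3% were lower and the median log2 fold change was -0.205. In that range lay 69 of the 78 genes, of which 64 were lower, with a median of -0.479. Across tested protein-coding genes the Spearman correlation of mean FPKM with the log2 fold change was -0.339, and across the 78 genes it was -0.187. These are correlations across genes of the same libraries, which are not independent replicates.

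In each class of level the median of the members lay below that of protein-coding genes. It was -0.388 against -0.172 at 5 to 20 FPKM (27 members), -0.532 against -0.275 at 20 to 50 FPKM (32 members) and -0.478 against -0.365 at 50 to 100 FPKM (10 members). The share of lower genes was 24 of 27, 31 of 32 and 9 of 10 for members, and 54.3%, 67.3% and 74.2% for protein-coding genes. After a smooth trend of fold change on abundance was removed, the median of the members was -0.359. The part of expression level in the falls was not tested further.

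**Figure D4:**
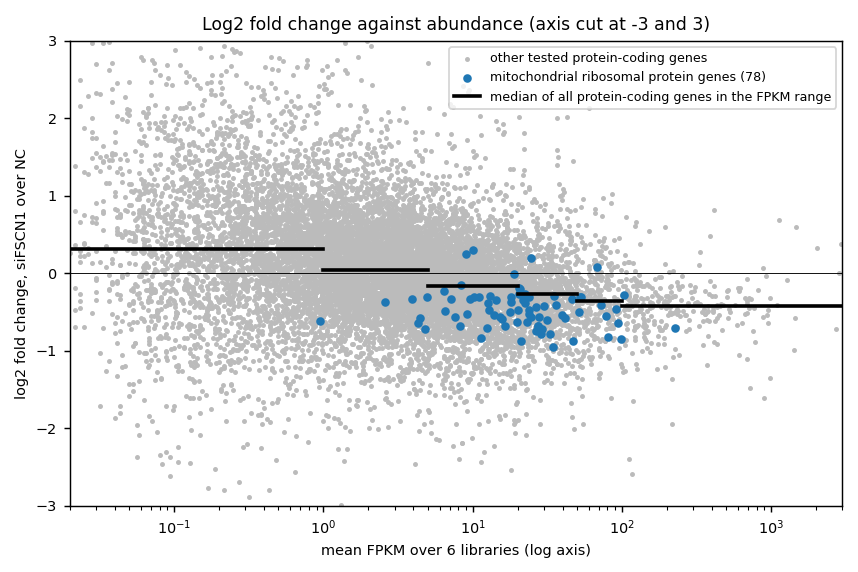
Log2 fold change of siFSCN1 over NC (vertical axis) against the mean FPKM (horizontal axis, logarithmic) for tested protein-coding genes in grey, with black bars for their medians in ranges of FPKM, and the 78 mitochondrial ribosomal protein genes in blue. Of these 69 lie between 5 and 100 FPKM, where the black bars run from -0.172 to -0.365, and most lie below the bar of their range.

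Members also differ from other protein-coding genes in structure. Their canonical transcripts had a median length of 1240 bases with 5 exons, against 3300 bases and 9 exons, and a median GC content of 48.2% against 48.9%. Within the 78 genes the Spearman correlation with the log2 fold change was 0.14 for transcript length, -0.24 for GC content and -0.218 for the number of exons. The 88 cytosolic ribosomal protein genes, which are short and far more abundant, moved in the same direction, with 82 of the 86 tested lower, 1 higher and a median of -0.409. Their summed FPKM had a ratio of 0.837, next to 0.787 for the mitochondrial ribosomal protein genes, and the difference was not tested.

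The deposited counts can be ambiguous where genes overlap. In GENCODE v44, 49 of the 78 genes overlapped another annotated gene, 24 of them on the same strand. The 29 genes with no overlap had 25 lower, 3 higher and a median of -0.376. The 49 with an overlap had 48 lower, 1 that did not pass and a median of -0.533. MRPL2 was the lowest gene per length, with 1.09, 0.99 and 1.20 FPKM in NC and 0.87, 0.76 and 0.77 FPKM in siFSCN1. A longer same-strand gene model, ENSG00000288564, held 633 to 1144 counts where MRPL2 held 62 to 111, so the level of MRPL2 is uncertain. MRPS17 is uncertain in the same way, because ENSG00000249773 and NIPSNAP2 share its strand and position, and its log2 fold change of -0.33 ± 0.11 (adjusted p = 0.0114) lost its call under scaling to library totals. MRPL42, the other of the 3 lowest genes per length, had 2.63, 2.81 and 2.83 FPKM in NC and 2.45, 2.39 and 2.36 FPKM in siFSCN1, with -0.37 ± 0.05 (adjusted p = 2.79e-06). Processed pseudogenes carry the names of 36 of the members, 81 in all, and reads that matched such a copy as well may have been lost as not unique.

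Many of these genes share a promoter region with a neighbour on the opposite strand. For 19 of the 78, a tested protein-coding gene on the opposite strand began close to the member's start. Its start lay at most 1000 bases upstream or 200 bases past that of the member. Gene models without a symbol were not taken as partners. Of these partners 13 were lower, 2 were higher and 4 did not pass, with a median log2 fold change of -0.374, next to 33.2% lower among all tested genes and 58.3% among protein-coding genes of 5 to 100 FPKM. Leaving aside the entries in which the partner is itself a member, 11 of 17 were lower, 2 higher and the median was -0.344. One such pair holds 2 members, MRPL46 and MRPS11, whose starts lie 63 bases apart on chromosome 15. MRPL46, of the large subunit, had 57.6, 58.0 and 59.2 CPM in NC and 39.2, 43.0 and 42.3 CPM in siFSCN1, and MRPS11, of the small subunit, had 104, 97.0 and 102 CPM in NC and 77.7, 71.3 and 69.2 CPM in siFSCN1. The log2 fold changes of -0.49 ± 0.05 and -0.47 ± 0.05 lay within their errors of each other.

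Other partners moved with their member or apart from it. TCP1, a subunit of the cytosolic chaperonin that starts 109 bases from MRPL18, had 318, 334 and 316 CPM in NC and 143, 137 and 143 CPM in siFSCN1, a log2 fold change of -1.19 ± 0.04 (adjusted p = 1.86e-14). SARS2, the mitochondrial seryl-tRNA synthetase beside MRPS12, was at -0.60 ± 0.05 (adjusted p = 2.58e-09). TWNK, the mitochondrial DNA helicase beside MRPL43, was at -0.34, and NDUFS6 and NDUFB5, subunits of respiratory complex I beside MRPL36 and MRPL47, were at -0.37 and -0.15. ZNF189, beside MRPL50, rose from 5.40, 5.39 and 4.91 CPM to 10.3, 11.1 and 11.2 CPM, with 1.06 ± 0.11 (adjusted p = 1.09e-07). FAU starts 6 bases from MRPL49 and encodes a cytosolic ribosomal protein, and it fell by 0.65 on the log2 scale (adjusted p = 1.53e-10) where MRPL49 did not pass. PSMA2, a proteasome subunit gene beside MRPL32, had 8 to 12 counts in NC and 18 to 30 in siFSCN1, while ENSG00000256646, a readthrough gene model that covers it on the same strand, had 5394 to 7380 and 3549 to 3915 counts and a log2 fold change of -0.93. How the reads were divided between the 2 models was not tested, so the value of PSMA2 is uncertain. The Spearman correlation over the 19 entries, with the MRPL46 and MRPS11 pair counted both ways, was 0.447, as a description.

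**Figure D5:**
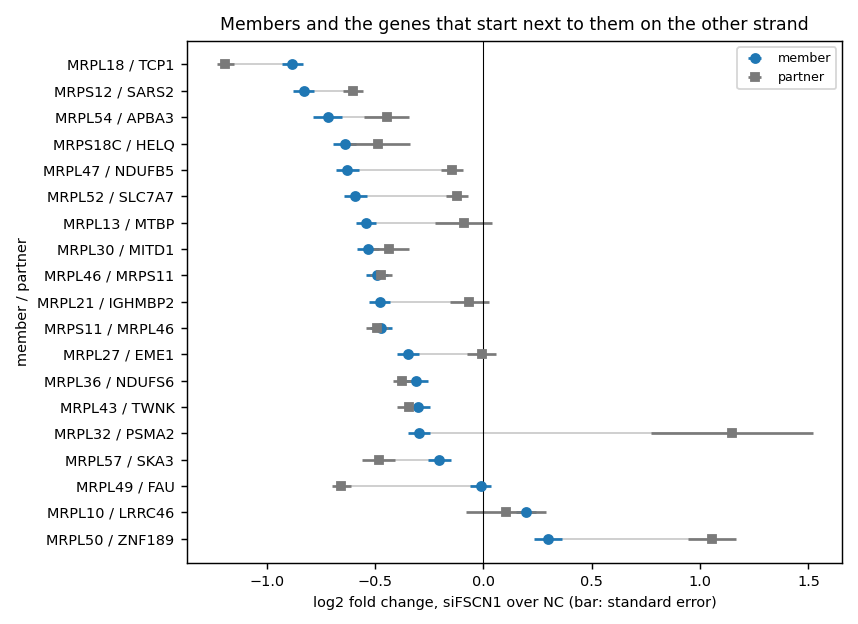
Log2 fold change of siFSCN1 over NC (horizontal axis, bars of 1 standard error) for each member (blue circle) and its divergent partner (grey square), joined by a line, in 19 rows ordered by the member. MRPL18 and TCP1 lie at -0.88 and -1.19, MRPL46 and MRPS11 lie on each other, and FAU lies at -0.65 where MRPL49 is near 0.

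An siRNA can also act on other messages through the seed of its guide strand, positions 2 to 8. The letters that pair with this seed, CTCTGGA, were searched in the 3′ UTR of the canonical transcript of each gene. They were found in 6 of the 78 members (7.69%) and in 17.4% of tested protein-coding genes. These shares were not matched for 3′ UTR length, and the members have shorter transcripts (median 1240 bases against 3300). Of these 6, the sites of the member that fell most and the member that rose are shown, with the pairing letters in capitals.
MRPS27: ctatcaaaagcCTCTGGAaataaatgttc
MRPL50: agtgcctggagCTCTGGAgcttagacatt
The other 4 were MRPL52, MRPS23, MRPS11 with 2 sites and MRPS25 with 3. The 6 genes had a median log2 fold change of -0.520, and the 72 without a site had 68 lower, 2 higher and a median of -0.485.

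Beside 58.3% lower among protein-coding genes of 5 to 100 FPKM, all 5 mitoribosomal proteins whose genes have other names were lower. Only 3 of them were with upper quartile scaling, library totals or either FPKM test. AURKAIP1, of the small subunit, had 155, 145 and 141 CPM in NC and 87.9, 78.2 and 71.0 CPM in siFSCN1, with a log2 fold change of -0.89 ± 0.06 (adjusted p = 3.41e-10). GADD45GIP1 and CHCHD1 were at -0.61 and -0.49. PTCD3, a pentatricopeptide repeat protein of the small subunit, was at -0.22 and lost its call under these alternatives (-0.04 with library totals, adjusted p = 0.532). DAP3, which carries a GTPase fold in the small subunit, was at -0.11 ± 0.04 (adjusted p = 0.0324), with a sign that turned under scaling to library totals (0.07). The rRNAs of the ribosome are only partly seen in polyadenylated RNA. MT-RNR1, of the small subunit, had a log2 fold change of -0.01 ± 0.12 (adjusted p = 0.945), and MT-RNR2, of the large subunit, was higher with 0.14 ± 0.04 (adjusted p = 0.00973).

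The factors that assemble and serve the ribosome were more divided than its proteins. Of 28 assembly factors 27 were tested, of which 13 were lower, 5 higher and 9 did not pass, with a median of -0.062. Beside them stand 33.2% lower and 35.1% higher among all tested genes. At 5 to 100 FPKM, 58.3% of protein-coding genes were lower, with a median of -0.205. The count of higher assembly factors was 3 without NC replicate 1, 11 with upper quartile scaling or either FPKM test and 12 with library totals. The lowest were C1QBP, a matrix protein that binds RNA, with -0.82, and RPUSD4, an rRNA pseudouridine synthase, with -0.59, and the highest were MTG1, a GTPase of large-subunit assembly, with 0.71, and METTL15, an rRNA methyltransferase, with 0.33. Of 18 tested translation factors of 19, 10 were lower, 4 higher and 4 did not pass, with a median of -0.261. Protein-coding genes of 5 to 100 FPKM had 58.3% lower and a median of -0.205. The count of higher translation factors was 2 without siFSCN1 replicate 2, without siFSCN1 replicate 3 or with DESeq2. MTFMT, which formylates the initiator methionyl-tRNA, had 28.3, 28.4 and 28.5 CPM in NC and 14.9, 13.7 and 12.4 CPM in siFSCN1, a log2 fold change of -1.05 ± 0.07 (adjusted p = 1.37e-10). TACO1, an activator of the translation of a cytochrome oxidase subunit, was at -0.86. MTRF1, a release factor, rose by 0.87 on the log2 scale from 2.75 to 4.53 CPM in NC to 5.73 to 7.50 CPM in siFSCN1, and MTIF3, an initiation factor, was at 0.18 with a call that was lost under 8 alternatives.

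Mitochondrial transcription and RNA processing had 11 of 16 genes lower and 5 that did not pass, with a median of -0.190, beside 33.2% lower among all tested genes. Protein-coding genes of 5 to 100 FPKM had 58.3% lower and a median of -0.205. With upper quartile scaling, library totals or either FPKM test 7 of the 16 were lower, and 1, 2 and 1 were higher. TFAM, which packages mitochondrial DNA and starts its transcription, had 71.3, 74.7 and 77.1 CPM in NC and 40.3, 40.9 and 43.5 CPM in siFSCN1, with -0.84 ± 0.05 (adjusted p = 8.46e-11). SSBP1, which binds single-stranded mitochondrial DNA, was at -0.54. SUPV3L1, an RNA helicase, and POLG, the mitochondrial DNA polymerase, were at -0.16 and -0.15, and the signs of both turned under scaling to library totals (0.03 and 0.04).

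Of 9 nuclear regulators of mitochondrial genes, 5 were lower, 1 was higher and 3 did not pass, with a median of -0.178. Among all tested genes 33.2% were lower and 35.1% higher, and among protein-coding genes of 5 to 100 FPKM 58.3% were lower. With upper quartile scaling, library totals or either FPKM test 3 of the 9 regulators were lower and 2 higher. NRF1 had 17.1, 16.6 and 14.3 CPM in NC and 9.80, 10.7 and 10.98 CPM in siFSCN1, with -0.61 ± 0.10 (adjusted p = 2.65e-05). GABPB1, a subunit of the complex GABP, was at -0.42, while GABPA, its ETS-family subunit, did not pass (0.14, edgeR adjusted p = 0.224). YY1 was at -0.19 (adjusted p = 0.000971), with 8.92, 9.41 and 9.11 FPKM in NC and 8.79, 8.98 and 9.23 FPKM in siFSCN1. MYC was at -0.18, and its sign turned under scaling to library totals (0.01). PPARGC1A, a coactivator of mitochondrial biogenesis, rose from 5.85, 6.34 and 7.16 CPM to 10.3, 11.1 and 10.2 CPM, with 0.71 ± 0.11 (adjusted p = 2.21e-05). The groups did not overlap for NRF1 or PPARGC1A. Of all tested genes, 34.4% had every siFSCN1 library below every NC library in CPM, and 36.8% had every one above.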

How the data were processed

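Polyadenylated RNA of A549 cells was sequenced in 3 NC and 3 siFSCN1 libraries, grouped by the sample titles. The study's results text calls them biological replicates, and p-values measure the spread between these libraries. The authors trimmed reads with the FASTX Toolkit, aligned them with HISAT2 to GRCh38 with up to 4 mismatches and kept unique alignments, whereas the submitters' processing notes name TopHat2. How reads were counted, whether by strand, and on which annotation release is not given in the sources used here. The authors deposited raw counts per gene for 30230 genes and FPKM, scaled to gene length and depth, for 29899 genes. No row lacked a gene name.

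Counts were filtered by filterByExpr, scaled by TMM and tested in R 4.3.3 with the quasi-likelihood method of edgeR 4.0.16 without covariates, with Benjamini-Hochberg adjustment over 17076 genes. The study used DESeq2, which was an alternative here (version 1.42.0), as were other scalings and filters, a replicate block, the omission of each library and limma 3.58.1 on log2(FPKM + 0.1) and log2(FPKM + 1). Pairs of libraries within a group differed by more than sampling noise (chi-square per degree of freedom from 3.1 to 8.14). The code was tested on simulated data.

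The members and lists were chosen with earlier results of these data known. The genes named are FSCN1, the 8 lowest and 8 highest members that passed, those nearest to 0 that did not, the 3 highest and 3 lowest in FPKM, the stalk, exit tunnel and MRPS18 members, MRPS12, MRPL58, MRPS36, the mitoribosomal proteins with other names, and the 2 lowest and 2 highest that passed in each other list. Members of the divergent pairs, those with a seed site, those with printed promoters, GABPA and YY1 were named after their values were seen. Gene positions come from GENCODE v44, which held 99.7% of the identifiers, and promoters from RefSeq (GRCh38.p14).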

Additional observations from a re-analysis of the deposited data

How the results depend on the processing

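The 3 against 3 design rests on libraries with a common biological coefficient of variation of 5.94%, and the lowest member count in any library was 62. For the 24 members that overlap a gene on the same strand, MRPL2 and MRPS17 among them, reads may have been divided among gene models. In the alternatives that tested all 78 members, 60 to 73 were lower, and the signs of MRPL49 and MRPS14 turned in some. The median log2 fold change was -0.367 with upper quartile scaling, -0.298 with library totals, -0.315 on log2(FPKM + 0.1), -0.293 on log2(FPKM + 1) and -0.359 with the abundance trend removed, which gives values without a test. The members called higher were 5 with library totals and with either FPKM test. Relative to all tested genes, whose median moved to 0.149 with upper quartile scaling and 0.171 on log2(FPKM + 0.1), the median of the members was -0.629 with no filter beyond 1 count, -0.374 on log2(FPKM + 1) and -0.333 with the trend removed. Without members that overlap another gene, 28 of 29 members changed, 25 of them lower, with a median of -0.376 or -0.407 relative to all tested genes. The summed ratio was 0.713 in CPM. In the 5 lists of other mitochondrial genes, 10 were higher, against 19 with upper quartile scaling, 22 with library totals and 19 with either FPKM test.

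Leaving out each library in turn gave 71 to 73 lower, 3 to 4 higher and a median from -0.525 to -0.464. The replicate numbers only share a number: deviations of same-numbered libraries correlated at -0.035, 0.040 and -0.084, and with the replicate block 73 were lower and 3 higher with a median of -0.485. That block moved no count of members by over 1.5 times. Added after seeing the data, further omissions of members were tried. Without members that overlap a same-strand gene, 52 of 54 changed, 49 lower and 3 higher, with a median of -0.477. Without members under 500 counts in any library, 73 of 75 changed, 70 lower and 3 higher, with a median of -0.490. The shares over all tested genes were 33.2% lower and 35.1% higher.

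Signs turned for MRPL49 (0.11 with upper quartile scaling, 0.17 with library totals, 0.017 with the stricter filter, -0.068 to 0.0014 when 1 library was left out, the sign turning without siFSCN1 replicate 2, 0.15 with either FPKM test and 0.15 with the trend removed) and for MRPS14 (0.036 with library totals, 0.016 and 0.014 on FPKM). They also turned for DAP3 (0.0061 with upper quartile scaling, 0.075 with library totals, 0.055 and 0.053 on FPKM and 0.098 with the trend removed), for SUPV3L1 (0.028 with library totals, 0.0074 and 0.0064 on FPKM), for POLG (0.04 with library totals, 0.0195 and 0.017 on FPKM) and for MYC (0.009 with library totals and 0.024 with the trend removed). The cause of these turns was not tested.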
